A study of Mus musculus with 3 samples.

Results

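The miR-200, miR-141 and miR-429 family of the mouse comprises 5 microRNA hairpins, Mir200b, Mir200a, Mir429, Mir200c and Mir141, which were taken by their symbols from the 2201 microRNA symbols of GENCODE M21. Reads were assigned to a hairpin when their first 20 nt matched it in sense. The members were set by symbol and not by level, though the family was chosen with earlier results of these data known. The RNA was that of fully grown oocytes of mice, the stage just before meiosis resumes. The mice were given 5 IU of PMSG, a hormone preparation with FSH-like action on the ovary, and were killed 48 hours later. The strain, the age and the number of animals are not given in the sources used here. Gel windows of 19-24 nt, 24-30 nt and 19-30 nt gave 1 library each, and a library is named below by its window. The groups share the labelled cell type and treatment, and the sources used here do not say whether they share an RNA preparation. No difference between them has a replicate check. The 19-24 and 24-30 nt windows had reads of 26 nt and the 19-30 nt window reads of 36 nt from another run. The 19-30 nt window was also a division of the RNA of its own, separate from the other two, so window, division, run and read length cannot be told apart.

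A microRNA is cut from a hairpin transcript and finds its target mRNAs mainly through its seed, bases 2 to 8 of the mature strand. The miR-200 family is known from epithelia, where its members repress the transcription factors Zeb1 and Zeb2 and so help to keep cells in the epithelial state. In mice, loss of Mir200b and Mir429 is known to impair ovulation through an effect in the pituitary. In mouse oocytes microRNAs are known to have little effect on mRNAs, and oocytes without the microRNA processing factor Dgcr8 can still mature. The family is encoded in 2 genomic clusters, each transcribed as a unit.

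The mature 3p strands from RefSeq (GRCm38.p6) are shown with the seed in capitals because 2 seeds divide the family in a way that cuts across the clusters.
mmu-miR-200b-3p, chr4:156055685-156055706, minus strand: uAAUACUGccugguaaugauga
mmu-miR-200a-3p, chr4:156054911-156054932, minus strand: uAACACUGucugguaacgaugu
mmu-miR-429-3p, chr4:156053916-156053937, minus strand: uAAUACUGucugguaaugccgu
mmu-miR-200c-3p, chr6:124718324-124718346, minus strand: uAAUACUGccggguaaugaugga
mmu-miR-141-3p, chr6:124717917-124717938, minus strand: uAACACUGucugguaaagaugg
Mir200b, Mir429 and Mir200c carry the seed AAUACUG, and Mir200a and Mir141 the seed AACACUG. Each cluster thus holds both seeds.

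Sequences of the same seed in different clusters are close to identical, and the bases in which they differ are shown in capitals because the assignment of reads rests on them.
Mir141: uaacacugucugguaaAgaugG
Mir200a: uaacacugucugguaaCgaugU
Mir200c: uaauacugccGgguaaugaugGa
Mir200b: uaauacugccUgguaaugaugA
With positions counted from 1 at the 5′ end of the mature strand and U written as T, Mir141 and Mir200a differ by A17C and G22T. Mir200c and Mir200b differ by G11T and G22A. Only 1 of these differences in each pair lies within the first 20 nt.

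The hairpins of the chr4 cluster lie at chr4:156055681-156055750 (Mir200b), chr4:156054896-156054985 (Mir200a) and chr4:156053905-156053987 (Mir429) of GRCm38, all on the minus strand. All 3 lie within introns of Ttll10, a protein-coding gene on the same strand. Mir200b and Mir200a also lie in introns, and Mir429 in an exon, of the non-coding transcript Gm13648. The chr6 cluster holds Mir200c at chr6:124718322-124718390 and Mir141 at chr6:124717914-124717985, both in introns of the non-coding Gm15884 on the same strand, and an exon of Gm29008 covers part of the Mir141 hairpin. Exons of these 4 genes outside the hairpins had 0 reads of 20 nt or longer in every library, and no such read matched the opposite strand of a family hairpin.

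The files held 764539 reads in the 19-24 nt window, 1484509 in the 24-30 nt window and 943811 in the 19-30 nt window. MicroRNA hairpins took 247010, 23614 and 34494 of them, which is 78.3%, 6.86% and 17.2% of the reads that matched an annotated transcript. Levels are therefore given as RPM, reads per 1000000 microRNA reads, unless another scale is named. Moving to all matched reads multiplies every ratio of the 19-24 over the 19-30 nt window by 4.54 (2.18 on the log2 scale), of the 19-24 over the 24-30 nt window by 11.4 (3.51) and of the 24-30 over the 19-30 nt window by 0.398 (-1.33). Intervals are 95% intervals, exact Poisson for levels, Wilson for shares and conditional binomial for ratios. They cover counting error alone, since PCR copies are not independent molecules. A count of 0 allows up to 3 reads, which is 12.1, 127 and 87.0 RPM in the 19-24, 24-30 and 19-30 nt window.

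The family took a far larger share of microRNA reads in the 19-30 nt window than in the other two. It had 985 reads in the 19-24 nt window (3988 RPM, interval 3743 to 4245), 11 in the 24-30 nt window (466, 233 to 833) and 1585 in the 19-30 nt window (45950.2, 43716 to 48269). The ratio of the 19-24 over the 19-30 nt window was 0.0868 (0.0801 to 0.0940), and 0.394 per matched read. The ratio of the 19-24 over the 24-30 nt window was 8.56 (4.76 to 17.2), and that of the 24-30 over the 19-30 nt window was 0.0101 (0.00505 to 0.0182). These 2 ratios kept their direction per matched read, at 97.8 and 0.00403. Within the 19-30 nt window Mir141 ranked 10 and Mir200c ranked 15 among the 729 hairpins with reads, against ranks of 83 and 165 among 857 in the 19-24 nt window.

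Mir141, the hairpin with most family reads in every library, had 447 reads in the 19-24 nt window, 5 in the 24-30 nt window and 919 in the 19-30 nt window. These were 1809.6 (1646 to 1985), 212 (68.8 to 494) and 26642 (24948 to 28422) RPM. The 19-24 over 19-30 nt ratio was 0.0679 (0.0605 to 0.0761), and per matched read 0.309. The level was thus highest in the 19-30 nt window on both scales.

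Mir200c, the other member of the chr6 cluster, had 87, 4 and 533 reads in the 19-24, 24-30 and 19-30 nt window. Its level was 352 (282 to 434), 169 (46.2 to 434) and 15452 (14168 to 16821) RPM. Its 19-24 over 19-30 nt ratio of 0.0228 (0.0180 to 0.0286) was the fourth lowest of the 263 hairpins with at least 20 reads over both libraries, and it was 0.104 per matched read. Among the hairpins of the family it therefore had the lowest ratio, while the 19-24 and 24-30 nt windows had overlapping intervals.

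Mir200a had 315, 1 and 115 reads in the 19-24, 24-30 and 19-30 nt window, which is 1275 (1138 to 1424), 42.3 (1.07 to 236) and 3334 (2753 to 4002) RPM. The 19-24 over 19-30 nt ratio was 0.383 (0.308 to 0.478) per microRNA read, 1.74 (1.40 to 2.17) per matched read and 1.21 (0.855 to 1.76) when base 22 also decided the assignment. With whole inserts matching it was 0.885 (0.438 to 1.94). In 26 nt reads this setting drops inserts over 22 nt that run into the linker. It also drops inserts of 21 nt or longer without the hairpin's G at position 21. That G was called in 102 of 313 Mir200a 3p reads of the 19-24 nt window and in 109 of 115 of the 19-30 nt window. The call for Mir200a thus depended on the scale and on the assignment.

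Mir429 had 92, 0 and 12 reads, or 372 (300.3 to 457), 0 (0 to 156) and 348 (180 to 608) RPM in the 19-24, 24-30 and 19-30 nt window. Mir200b had 44, 1 and 6 reads, or 178 (129 to 239), 42.3 (1.07 to 236) and 174 (63.8 to 379). Neither differed between the 19-24 and 19-30 nt windows beyond counting error per microRNA read, with ratios of 1.07 (0.584 to 2.15) for Mir429 and 1.02 (0.435 to 2.94) for Mir200b. With only reads sized at 19 to 24 nt, the ratio of Mir429 was 2.51 (1.10 to 7.07), whose interval lies above 1. This setting reached only 22 nt in the 26 nt reads of the 19-24 nt window, so it compares unlike lengths. Per matched read both were higher in the 19-24 nt window, at 4.86 (2.65 to 9.76) and 4.65 (1.98 to 13.4). With the 0 in the 24-30 nt window raised to 3 reads, the Mir429 ratio of the 19-24 over the 24-30 nt window was 2.93. With the 0 kept, the lower limit of the counting interval of this ratio was 2.34.

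**Figure D1:**
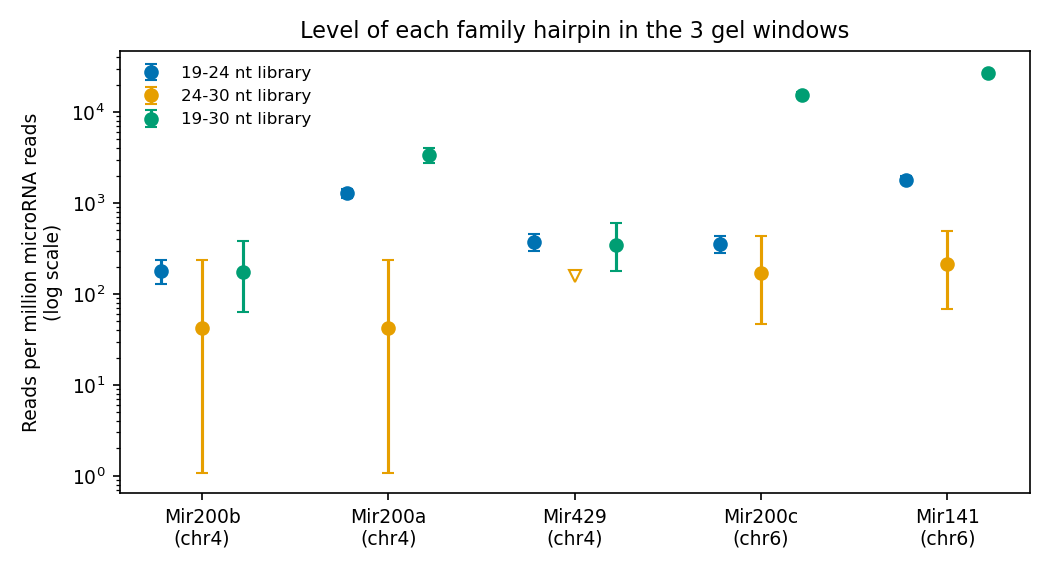
RPM, reads per 1000000 microRNA reads (log axis), of the 5 hairpins in the 19-24, 24-30 and 19-30 nt windows, with exact Poisson intervals of 95%; the open triangle is the upper limit for Mir429, which had 0 reads in the 24-30 nt window. Mir200c and Mir141 reach 15452 and 26642 in the 19-30 nt window, far above their 352 and 1809.6 in the 19-24 nt window, while Mir200b and Mir429 lie at similar levels in these libraries.

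The order of levels was Mir141, Mir200a, Mir429, Mir200c and Mir200b in the 19-24 nt window, where the intervals of Mir429 and Mir200c overlapped. In the 19-30 nt window it was Mir141, Mir200c, Mir200a, Mir429 and Mir200b, and only the intervals of the last 2 overlapped. The 11 reads of the 24-30 nt window gave overlapping intervals for all members with reads.

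Set against all hairpins with at least 20 reads over the 2 libraries compared, 3 of 5 members were at least 2-fold lower in the 19-24 than in the 19-30 nt window per microRNA read, where 27% of 263 hairpins were. None of the 5 was at least 2-fold higher, where 41.4% were. With base 22 used in the assignment, Mir200a left the lower set, and Mir200c and Mir141 remained. The median log2 ratio of the 5 members, with 0.5 reads added to each count, was -1.39, and that of all 263 hairpins 0.57. The median of the 5 is the value of Mir200a itself, and with base 22 used the middle member was Mir200b, with a ratio of 0.508 and no reads added. In the 19-30 nt window 5 of the 11 reads behind that ratio were moved from Mir200c on base calls of low quality, given below. In the 19-24 over the 24-30 nt window 57.4% of the hairpins with enough reads were at least 2-fold higher and 19.9% at least 2-fold lower. Without added reads Mir200b, Mir200a, Mir200c and Mir141 had ratios of 4.21, 30.1, 2.08 and 8.55, and Mir429 had 0 reads in the 24-30 nt window. The intervals of Mir200b and Mir200c included 1, and with 0.5 reads added Mir200c was at 1.86. All 5 reached 20 reads through the 19-24 nt window, so nothing is read from their count. In the 24-30 over the 19-30 nt window 48.1% of 183 hairpins were at least 2-fold lower and 31.1% at least 2-fold higher. Mir200a, Mir200c and Mir141, with 1, 4 and 5 reads in the 24-30 nt window, reached 20 reads only through the 19-30 nt window, and Mir200b and Mir429 did not reach them, so nothing is read from their count here either.

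**Figure D2:**
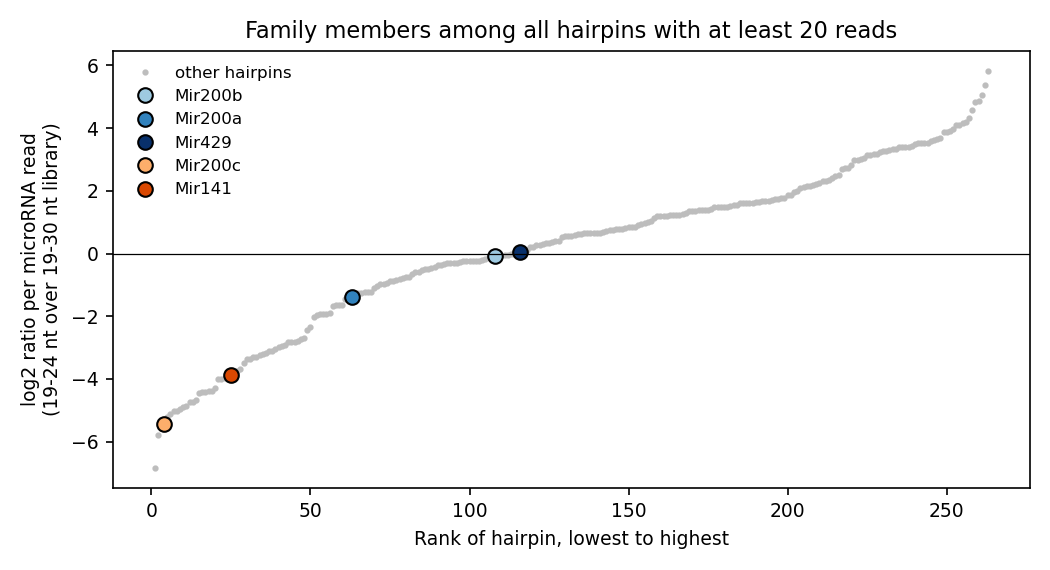
Hairpins with at least 20 reads over the 19-24 and 19-30 nt windows, ordered by the log2 ratio of their reads per microRNA read (19-24 over 19-30 nt, 0.5 reads added to each count); coloured points are the family and grey points the other hairpins. Mir200c at -5.45 and Mir141 at -3.88 lie near the lower end, Mir200a at -1.39 in the lower part, and Mir200b at -0.06 and Mir429 at 0.05 near 0.

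The clusters differed in how their reads were spread over the libraries. The chr4 cluster gave 451 reads in the 19-24 nt window, which is 45.8% of the family (42.7 to 48.9), 2 of 11 reads in the 24-30 nt window (18.2%, 5.14 to 47.7) and 133 reads in the 19-30 nt window (8.39%, 7.12 to 9.86). The chr6 cluster gave 534, 9 and 1452 reads. Per microRNA read the chr6 cluster had a 19-24 over 19-30 nt ratio of 0.0514 (0.0464 to 0.0568), and per matched read 0.233. The chr4 cluster had 0.474 (0.389 to 0.579) per microRNA read, and its direction turned to 2.15 (1.77 to 2.63) per matched read. The ratio of the chr4 cluster was above that of the chr6 cluster, with intervals that did not overlap, and a change of scale multiplies both alike.

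The seeds were divided less unevenly. The seed AAUACUG took 223 reads in the 19-24 nt window (22.6%, 20.1 to 25.4), 5 in the 24-30 nt window (45.5%, 21.3 to 72) and 551 in the 19-30 nt window (34.8%, 32.5 to 37.1). AACACUG, the seed of Mir141 and Mir200a, took 762, 6 and 1034 reads. Per microRNA read the 19-24 over 19-30 nt ratios were 0.0565 (0.0482 to 0.0661) for AAUACUG and 0.103 (0.0936 to 0.113) for AACACUG, and per matched read 0.257 and 0.468. Both seeds were lower in the 19-24 nt window on either scale. The source of the AAUACUG reads differed: in the 19-24 nt window Mir429 gave 92, Mir200c 87 and Mir200b 44 of them, and in the 19-30 nt window Mir200c gave 533 of 551.

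The reads assigned to Mir200a in the 19-30 nt window carried, at position 22, mostly the base of Mir141. Of 115 such 3p reads that began at the RefSeq start, 91 had G, the base of Mir141 (79.1%, 70.8 to 85.6), and 13 had T, the base of Mir200a (11.3%, 6.73 to 18.4). In the 19-24 nt window the order was the opposite, with G in 9 of 313 reads (2.88%, 1.52 to 5.37) and T in 292 (93.3%, 90.0 to 95.6). The single read of the 24-30 nt window had T. Reads assigned to Mir141 had its own G in 389 of 441 reads in the 19-24 nt window, in 4 of 5 in the 24-30 nt window and in 756 of 908 in the 19-30 nt window, and T in 19, 0 and 32. In reads with an insert shorter than 22 nt, position 22 is a linker base.

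The most frequent starts of 22 bases are shown as the reads give them, with positions 17 and 22 in capitals, because they carry this difference between the libraries.
Assigned to Mir200a, 19-24 nt window, 123 reads: taacactgtctggtaaCgattT
Assigned to Mir200a, 19-24 nt window, 93 reads: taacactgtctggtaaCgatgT
Assigned to Mir200a, 19-30 nt window, 88 reads: taacactgtctggtaaCgatgG
Assigned to Mir200a, 19-30 nt window, 11 reads: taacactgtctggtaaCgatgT
Assigned to Mir141, 19-30 nt window, 730 reads: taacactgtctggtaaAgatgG
The sequences of the 19-24 nt window differ from each other at position 21, where all members have G in RefSeq. At this cycle that library gave T in 131 and G in 102 of its 313 Mir200a reads. It gave T in 190 and G in 126 of its 441 Mir141 reads. The 19-30 nt window gave G in 109 of 115 and 855 of 908 such reads. The calls of the 19-24 nt window at position 21 are therefore not read as bases of the RNA.

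The 88-read sequence has the base of Mir200a at position 17 and that of Mir141 at position 22. The base call at position 17 of the 91 reads with G at position 22 had a median quality of 3, on a scale that reaches 40, and that of the 13 reads with T had a median of 30. Reads assigned to Mir141 in the same window had a median of 17 at this position with its own base at position 22 (756 reads) and 15.5 with the base of Mir200a (32 reads). In the 19-24 nt window the 292 reads with both bases of Mir200a had a median of 40. In other microRNAs, sequences that differ from an abundant one by A17C alone and match no annotated transcript made up 8.55% of reads in the 19-30 nt window (8.01 to 9.13), from 2.70% to 25.7% over 17 sequences. The same share was 1.72% (1.63 to 1.82) over 41 sequences of the 19-24 nt window and 2.80% (2.19 to 3.57) over 14 of the 24-30 nt window. Mir200a had 11.2% (9.45 to 13.3) of the 3p reads of Mir200a and Mir141 in the 19-30 nt window, and 41.5% (38.0 to 45.1) in the 19-24 nt window. The sized inserts carried the 3′ end of Mir141 as well: 19 of 53 were 22 nt long and ended in G, and 17 were 23 nt long and ended in GC, where the Mir200a hairpin has T and TT. Whether each such read came from Mir141 was not tested.

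**Figure D3:**
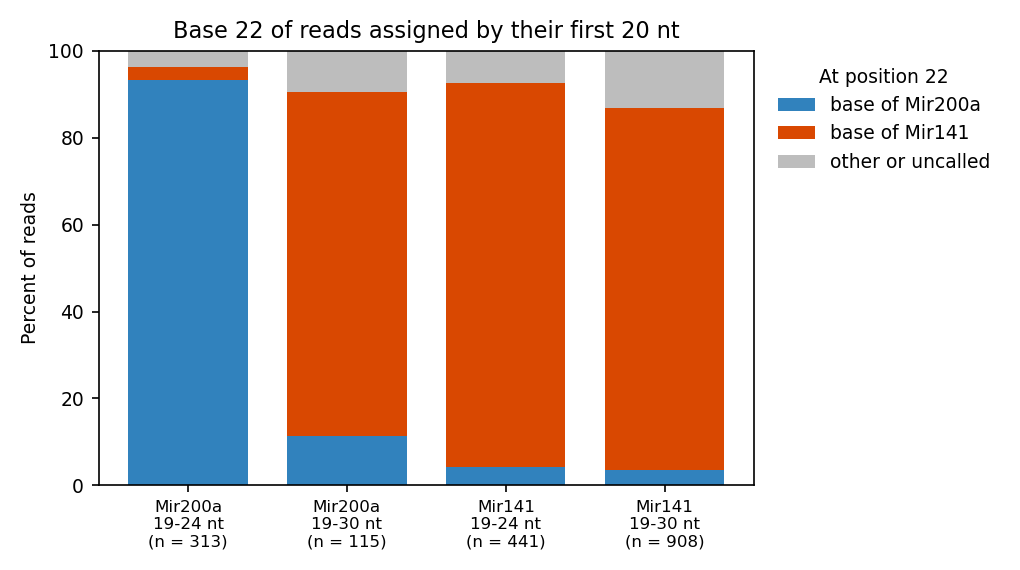
Base at position 22 of 3p reads assigned to Mir200a or Mir141 by their first 20 nt, as a percent of the reads of each bar; colours give the base of Mir200a, the base of Mir141, and another or no call. Reads assigned to Mir200a have its own base in 93.3% of 313 reads of the 19-24 nt window and in 11.3% of 115 reads of the 19-30 nt window.

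In Mir200b and Mir200c, the other pair of near-identical sequences, no such shift was seen in the 19-30 nt window, where Mir200b had only 6 reads. None of the 6 reads assigned to Mir200b there had the G of Mir200c at position 22 (0%, 0 to 39.0), 3 had its own A, and 3 had another base. In the 19-24 nt window 5 of 41 Mir200b reads had G (12.2%, 5.32 to 25.5) and 22 had A (53.7%, 38.7 to 67.9). The median quality at position 11 was 8 in these 5 reads and 40 in these 22. It was 14.5 in the 80 Mir200c reads of that window with their own G at position 22. Mir200c had its own G in 80 of 85 reads of the 19-24 nt window, in all 4 of the 24-30 nt window and in 496 of 530 of the 19-30 nt window. Changes of the kind G11T made up 1.56%, 0.0487% and 0.0857% of reads in other microRNAs of the 19-24, 24-30 and 19-30 nt window. In the 19-24 nt window they ran from 0% to 28.7% over 53 sequences.

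When 3p reads of these 4 hairpins with the partner's base at position 22 were given to the partner, except those with inserts sized below 22 nt, Mir200a had 312, 1 and 36 reads and Mir141 450, 5 and 998 in the 19-24, 24-30 and 19-30 nt window. The chr4 cluster then took 45.1% of family reads (42.0 to 48.2) in the 19-24 nt window and 3.72% (2.90 to 4.77) in the 19-30 nt window. Its level was 1797.5 RPM in the 19-24 nt window and 1710.45 in the 19-30 nt window, a ratio of 1.05 (0.80 to 1.40). The chr6 cluster stood at 2190.2 and 44240 in the same libraries, a ratio of 0.0495 (0.0448 to 0.0546). Mir200b then had 40 and 11 reads in these libraries, a ratio of 0.508 (0.256 to 1.10). Of the 11 reads, 5 were moved from Mir200c. Their base calls had a median quality of 7 at position 22 and of 40 at position 11, where they had the base of Mir200c. With this assignment the chr4 cluster was indistinguishable between the 19-24 and 19-30 nt windows within counting error per microRNA read, and the chr6 cluster was not. The shares of the seeds are the same under both assignments, since the partners share a seed.

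**Figure D4:**
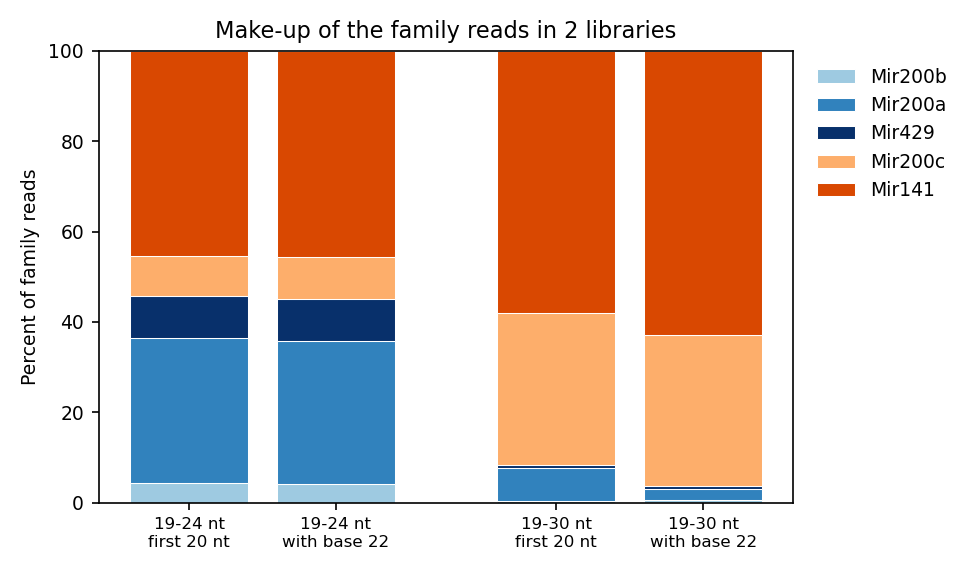
Percent of family reads given by each hairpin in the 19-24 and 19-30 nt windows, assigned by the first 20 nt or with base 22 as well; blue shades are the chr4 cluster and orange shades the chr6 cluster. The chr4 cluster holds 45.8% and 45.1% in the 19-24 nt window and 8.39% and 3.72% in the 19-30 nt window.

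Nearly all reads came from the 3p arm. It gave 978 of 985 reads in the 19-24 nt window (99.3%, 98.5 to 99.7), all 11 in the 24-30 nt window (100%, 74.1 to 100) and 1575 of 1585 in the 19-30 nt window (99.4%, 98.8 to 99.7). The 5p reads were those of Mir141 (4 in the 19-24 and 9 in the 19-30 nt window), Mir200c (1 and 1) and Mir200b (2 and 0). Of the Mir141 5p reads, 3 in the 19-24 nt window and 6 in the 19-30 nt window began 2 nt before the RefSeq start. No 5p read was found for Mir200a or Mir429.

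The 5′ end of the 3p reads, which sets the seed, was nearly constant. It lay at the RefSeq start in 972 of 978 3p reads of the 19-24 nt window (99.4%, 98.7 to 99.7), in all 11 of the 24-30 nt window and in 1571 of 1575 of the 19-30 nt window (99.7%, 99.3 to 99.9). The exceptions in the 19-30 nt window were 2 reads of Mir200c and 2 of Mir141 that began 1 nt earlier.

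The 3′ ends varied, and Mir200c was longer than Mir141. In the 19-30 nt window 1085 of the 1575 3p reads could be sized by the linker. Those of Mir200c averaged 23.3 nt, with 88.3% at 23 nt or longer (84.8 to 91.1, 401 reads), and those of Mir141 22.3 nt, with 43.0% (39.2 to 46.9, 621 reads). Mir200c peaked at 23 nt with 193 reads and had 122 at 24 nt, and Mir141 had 245 reads at 22 nt and 239 at 23 nt. The hairpins of the chr4 cluster had 53, 6 and 4 sized 3p reads (Mir200a, Mir429 and Mir200b) in this library.

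In the 19-24 nt window inserts could be sized up to 22 nt, and the share of 3p reads sized at 22 nt or shorter served for comparison between members. It was 79.3% for Mir429 (70.0 to 86.4), 50% for Mir200b (35.5 to 64.5), 29.3% for Mir141 (25.3 to 33.7), 28.9% for Mir200a (24.2 to 34.1) and 9.30% for Mir200c (4.79 to 17.3). Among the reads without a linker found, 159 of the 224 Mir200a reads had the first 3 linker bases right after base 23. Mir200a also had T at position 23, the next base of its hairpin, in 185 of 313 reads (59.1%, 53.6 to 64.4). Mir429 was thus mostly 22 nt or shorter in this library, and most Mir200c reads could not be sized. Of the 78 Mir200c reads without a linker found, 43 had the first 3 linker bases right after base 23. The length of the other Mir200c reads without a linker is not known. Of the 11 reads in the 24-30 nt window 1 was sized, a Mir141 read of 22 nt, and 3 others had the first linker bases after base 23.

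Most Mir200c inserts of 24 nt in the 19-30 nt window ended in an adenosine that the hairpin does not encode. The leading inserts are shown with the bases that depart from the hairpin in capitals.
Mir200c, 23 nt, 143 reads: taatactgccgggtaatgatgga
Mir200c, 24 nt, 92 reads: taatactgccgggtaatgatggaA
Mir200c, 25 nt, 20 reads: taatactgccgggtaatgatggaAA
Mir141, 22 nt, 228 reads: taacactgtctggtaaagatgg
Mir141, 23 nt, 200 reads: taacactgtctggtaaagatggc
Mir141, 23 nt, 24 reads: taacactgtctggtaaagatggA
The form with a single added adenosine made up 23% of the 400 Mir200c 3p reads sized at 20 nt or longer from the RefSeq start (19.1 to 27.4), and the 25 nt form with a further one 5.00% (3.26 to 7.60). Only 2 of 121 such reads at 24 nt followed the hairpin, whose next base is G. For Mir141 200 of 239 reads at 23 nt followed the hairpin throughout, and 24 reads (3.88% of 618, 2.62 to 5.71) ended in an adenosine in place of its C.

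Base 24 can be read in every library without finding the linker, but late calls of A were not alike between libraries. At base 23, where the Mir200c hairpin has A, the 19-24 nt window gave A in 33 and G in 34 of 85 Mir200c reads. The 19-30 nt window gave A in 329 and G in 18 of 530. Mir200c had A at base 24 in 4 of 85 reads of the 19-24 nt window (4.71%, 1.85 to 11.5), in 2 of 4 of the 24-30 nt window and in 180 of 530 of the 19-30 nt window (34.0%, 30.1 to 38.1). Mir141 had A at base 24 in 25 of 441 (5.67%, 3.87 to 8.23), 1 of 5 and 29 of 908 reads (3.19%, 2.23 to 4.55). A was thus called more often at base 24 of Mir200c in the 19-30 than in the 19-24 nt window, whose window ends at 24 nt. The part of base calling in this difference was not tested.

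**Figure D5:**
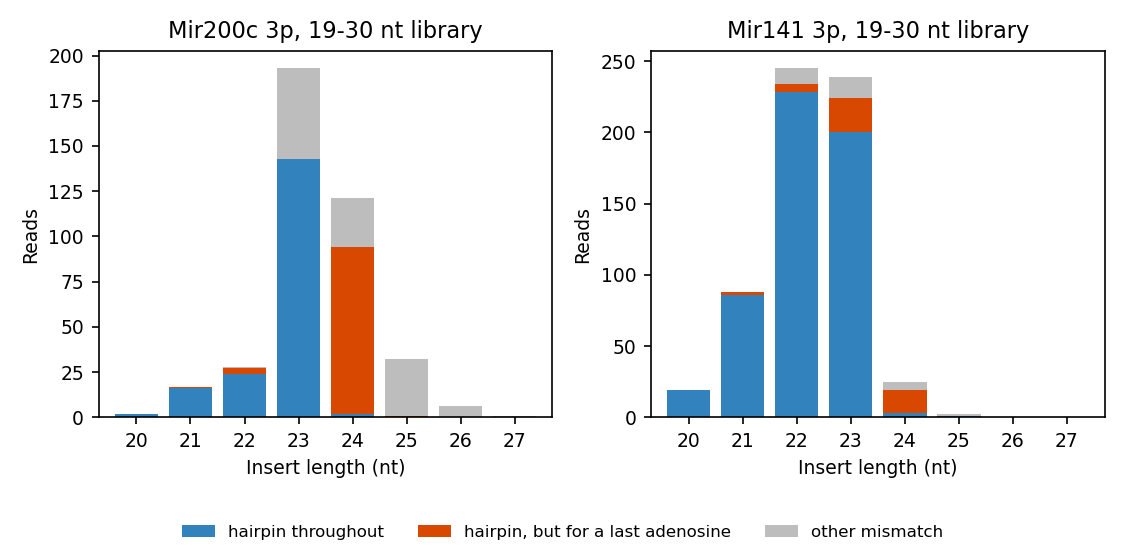
Reads by insert length (nt) for the 3p strands of Mir200c and Mir141 in the 19-30 nt window; colours separate inserts that follow the hairpin throughout, those that do so but for a last adenosine, and those with another mismatch. Mir200c has 143 hairpin reads at 23 nt and 92 with a last adenosine at 24 nt, and Mir141 has 228 and 200 hairpin reads at 22 and 23 nt.

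The libraries also differed in lists of microRNAs known from germ cells or from other cell types, and these values stand beside the family's. A list of 12 germ cell and early embryo hairpins had 2985, 847 and 74379 RPM in the 19-24, 24-30 and 19-30 nt window. The ratio of the 19-24 over the 19-30 nt window was 0.0401 (0.0369 to 0.0436), and all 11 of its hairpins with at least 20 reads were at least 2-fold lower. A list of 7 hairpins of stroma, vessels and granulosa cells went the other way, with 49298, 6550 and 7963 RPM and a ratio of 6.19 (5.49 to 7.0), all 7 being at least 2-fold higher. The 5 blood hairpins had 13931, 5590 and 522 RPM and a ratio of 26.7 (16.9 to 45.1), all 5 higher. Over all 263 hairpins 27% were at least 2-fold lower and 41.4% at least 2-fold higher. All 5 blood hairpins reached 20 reads only through the window where they were higher. So did some in the other lists, such as Mir471 (8 and 35 reads) and Mir145a (614 and 7), so nothing is read from these counts. The ratio of the chr6 cluster, 0.0514, lay below 1 like that of the germ cell list, and whether they share a source was not tested.

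Since the family is known from epithelia, 8 other hairpins known from epithelial and ciliated cells were set beside it. Together they had 5579, 1143 and 15278 RPM in the 19-24, 24-30 and 19-30 nt window. Their 19-24 over 19-30 nt ratio was 0.365 (0.330 to 0.404), also below 1, with single hairpins on both sides of 1. Of the 7 with at least 20 reads, 3 were at least 2-fold lower in the 19-24 than in the 19-30 nt window, namely Mir182 (16 and 264 reads), Mir183 (37 and 152) and Mir96 (18 and 69). The other 4 were at least 2-fold higher, namely Mir205 (555 and 15), Mir203 (84 and 4), Mir34c (454 and 22) and Mir34b (204 and 0). Mir449a had 10 and 1 reads. Of all 263 hairpins 27% were at least 2-fold lower and 41.4% at least 2-fold higher. Mir182, Mir96, Mir205, Mir203 and Mir34b reached 20 reads only through the window where they were higher, so nothing is read from these counts. The part of the cells these hairpins are known from in the family's levels was not tested.

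The likeness of other hairpins was measured by the distance between log2 ratios (19-24 over 19-30 nt and 24-30 over 19-30 nt, per microRNA read, 0.5 reads added), over 3 libraries and 188 hairpins with at least 100 reads. All the hairpins named had at most 6 reads in the 24-30 nt window and many had 0 to 2, so that the added reads weigh on the distances and their order is loose. Closest to the family as a whole were Mir880 at 0.35, Mir3547 at 0.71, Mir741 at 0.91, Mir871 at 0.98 and Mir335 at 1.02. The same 5 were closest to Mir141, led by Mir880 with 47, 0 and 85 reads. Closest to Mir200c were Mir155 at 0.48 (42, 3 and 326 reads), Mir470, Mir183, Mir741 and Mir141. For Mir429 they were Mir98 at 0.32 (644, 4 and 108 reads), Mir376b, Mir532, Mir30b and Mir101b. For Mir200a, as assigned by the first 20 nt, they were Mir30b at 1.25, Mir32, Mir218-1, Mir218-2 and Mir376b. Mir200b had too few reads for this measure.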

How the data were processed

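The deposited files hold single reads with a quality value per base, with the 3′ linker still attached. Per the labels' protocols and design text, Trizol RNA was cut from a gel, ligated to adapters, amplified by RT-PCR and sequenced on an Illumina 1G. An aligner, a build or filters of the authors are not given in the sources used here. Per the labels, the design names the 19-24 and 24-30 nt fractions as a pair, and the 19-30 nt fraction as a separate division. The family, the lists and the comparisons were chosen with earlier results of these data known.

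The linker was taken as the most frequent read of the 19-30 nt library. It was trimmed where at least 4 (26 nt reads) or 6 (36 nt reads) called bases overlapped with up to 20% mismatches. Inserts of at least 18 nt were kept, as were reads without a linker found. In the 36 nt reads those without a linker held 491 family reads (31.0%), of which 438 had at least 60% linker bases at their best place after bases 20 to 26. The first 20 nt (whole inserts of 18 or 19 nt) had to match one of 141767 GENCODE M21 transcripts (GRCm38) perfectly, on either strand. Reads with several genomic places were weighted by 1 over their number, and those with over 1000 set aside. All family reads had a single place. Named were all 5 members, the hairpins of the lists and the 5 hairpins closest to each member. With 1 library per window no test was made. Tables and intervals were computed with Python 3.11.15, NumPy 2.4.6, pandas 2.3.3 and SciPy 1.17.1. Counting was tested on simulated data. The hairpins fixed as Mir743a, Mir465a and Mir292a are Mir743, Mir465 and Mir292 in M21.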

Additional observations from a re-analysis of the deposited data

How the results depend on the processing

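No paired analysis was possible because each gel window has 1 library. With 11 family reads the 24-30 nt window limits every ratio that uses it, and base errors limit every count that needs bases after position 20. Matching whole inserts needs position 21, where the hairpin's G was called far less often in the 19-24 than in the 19-30 nt window. Values of that setting thus compare libraries with unlike losses. Where a value left its counting interval, the cause was not tested unless fewer reads or another denominator is part of the alternative.

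The family ratio of the 19-24 over the 19-30 nt window (0.0868) stayed below 1 in every alternative run. It was 0.0741 with 18 matching bases, 0.0432 with whole inserts matching, 0.0785 with 1 mismatch allowed, 0.221 with distinct sequences, 0.0630 with reads sized at 19 to 24 nt, 0.113 without Mir141, 0.394 per matched read, 0.684 per usable insert and 0.0778 with singly placed reads. The ratio of the 19-24 over the 24-30 nt window (8.56) was 97.8 per matched read and 187 per usable insert, and gave no value with whole inserts matching, where the 24-30 nt window had 0 reads. The ratio of the 24-30 over the 19-30 nt window (0.0101) was 0 with whole inserts matching, 0.0377 with distinct sequences, 0.00473 with sized reads, 0.00403 per matched read and 0.00365 per usable insert.

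The chr4 share in the 19-24 nt window (45.8%) was 55.8% with whole inserts matching, 57.3% with sized reads and 83.8% without Mir141. In the 19-30 nt window (8.39%) it was 9.90% with 18 bases, 2.40% with whole inserts, 11% with 1 mismatch, 16.4% with distinct sequences, 5.99% with sized reads and 19.97% without Mir141. Both further alternatives, chosen after seeing the data, gave 5.76% without the reads lacking a linker and 3.72% with base 22. The AAUACUG share in the 19-24 nt window (22.6%) was 27.4% with whole inserts, 33.8% with distinct sequences, 31.8% with sized reads and 41.4% without Mir141. In the 19-30 nt window (34.8%) it was 25.9% with whole inserts, 37.6% without the reads lacking a linker and 82.7% without Mir141. In the 24-30 nt window the single sized read put both shares at 0%, and the AAUACUG share was 83.3% without Mir141. The intervals of the AAUACUG share in the 19-24 and 19-30 nt windows overlapped with whole inserts matching, with distinct sequences (33.8% and 33.9%) and with sized reads (31.8% and 35.4%).

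The 3p share was 97.7% (19-24 nt window) and 98.5% (19-30 nt window) with distinct sequences, and 99.8% in the 19-30 nt window without Mir141. The share at the RefSeq start in the 19-24 nt window was 97.3% with whole inserts, 98.0% with distinct sequences and 100% with sized reads, and 99.2% in the 19-30 nt window with distinct sequences. The share of sized 3p reads at 23 nt or longer in the 19-30 nt window (59.4%) was 47.2% with whole inserts, 69.2% with no linker mismatch, 67.1% with distinct sequences and 81.5% without Mir141. The Mir200a ratio of the 19-24 over the 19-30 nt window (0.383) turned to 1.21 with base 22, 1.74 per matched read and 3.02 per usable insert. It was 0.885 with whole inserts, where the interval (0.438 to 1.94) included 1, 0.608 without the reads lacking a linker, 0.272 with 18 bases and 0.254 with 1 mismatch. The Mir429 ratio (1.07) was 2.51 with sized reads, with an interval above 1, and the Mir200b ratio (1.02) 0.191 with whole inserts, with an interval that included 1. The Mir200c ratio (0.0228) was 0.111 with distinct sequences, 0.00456 with sized reads and 0.00306 with whole inserts, and the Mir141 ratio (0.0679) 0.173, 0.0425 and 0.0253 in the same order, and 0.0564 with 18 bases. Of the 207 values recomputed, 69 left the counting interval of the value they replace, and 3 more, those of Mir200a, turned a called direction. The others include values that an alternative cannot move, such as the family ratios and seed shares with base 22, and are no measure of stability.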
